A study of Mus musculus with 4 samples.

Results

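The cells described here are the epithelial cells of dissected E10.5 mouse hearts that held transcripts of *Nkx2-1*, the gene of a homeodomain transcription factor of the ventral foregut. They were proposed as lung bud epithelium, with *Nkx2-1*, *Wnt7b*, *Irx1*, *Etv5* and *Cldn18* as markers. Members were the cell barcodes with at least 1500 detected genes, at most 10% mitochondrial UMIs, at least 1 UMI of the epithelial adhesion gene *Epcam* and at least 1 UMI of *Nkx2-1*. A UMI (unique molecular identifier) marks 1 captured transcript. Cells were left out at 15 or more UMIs per 10000 of the cardiomyocyte gene *Tnnt2*, at 500 or more of the embryonic globin gene *Hbb-y*, or at 2 or more of the endothelial genes *Pecam1*, *Cdh5* and *Ecscr* together. Of 30415 barcodes past the filters on genes and mitochondrial UMIs, 283 were members, named here Epcam+ Nkx2-1+ cells. The cells were thus chosen by their own UMIs of *Epcam*, *Nkx2-1*, *Tnnt2*, *Hbb-y* and the endothelial genes, whose levels describe the choice and support nothing further.

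The whole cardiogenic region was dissected and dissociated for 10x single-cell RNA sequencing, in a study of the endocardial receptor TIE2. All embryos carried floxed *Tie2* alleles (Tie2 fl/fl): control libraries 5 and 7 were labelled with the floxed alleles alone, and *Tie2-cko* libraries 6 and 8 from Nfatc1Cre;Tie2 fl/fl embryos, in which Cre is made where *Nfatc1* is active, chiefly the endocardium, so that no deletion is directed at foregut epithelium. Control and mutant libraries were somite-matched within a litter, without the labels saying which match. By the methods, 2 hearts of a genotype were taken per stage, without a statement of which heart entered which library, so that p-values measure the spread between libraries only. The deposited matrices held 259775540 UMIs in library 5, 222270938 in library 6, 169361996 in library 7 and 210062861 in library 8.

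NKX2-1 marks the lung and the thyroid, both outgrowths of the ventral foregut endoderm, and is also made in the ventral forebrain. In the lung bud, SOX9 and ETV5 mark the growing distal tip under FGF10 signals from the mesenchyme, WNT7B and SHH signal from the epithelium to the mesenchyme, and surfactant protein genes become active as the lineage differentiates. The thyroid primordium forms in the pharyngeal floor close to the aortic sac and expresses *Pax8*, *Hhex* and *Foxe1* together with *Nkx2-1*, long before thyroglobulin is made in quantity.

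The marker genes divided the cells, and the label held for only a part of them. Graph-based clustering of the 283 cells gave 7 clusters. A marker counted as held by a cluster where it reached 0.25 of its highest cluster level. Of the clusters, 4 held at least 4 of the 5 proposed lung markers and none of the thyroid markers, and were called lung bud-like. The 2 called thyroid-like held 6 of 8 thyroid markers and 1 lung marker, which was the *Nkx2-1* of the rule. The lung bud-like clusters had 165 cells (58.3%), the thyroid-like clusters 97 (34.3%) and the last cluster 21 (7.42%). In the last, no marker of either list reached that level, and it stayed unnamed. Its cells still had marker UMIs, 11 of them of at least 2 lung genes beside *Nkx2-1* and 6 of at least 2 thyroid genes. These names were rebuilt here from markers and are not the study's. Split by library, there were 81 lung bud-like cells in library 5 (control), 80 in library 6 (*Tie2-cko*), 1 in library 7 (control) and 3 in library 8 (*Tie2-cko*). Of these cells of libraries 7 and 8, named through their cluster, 1 had lung genes alone (sum 2.38 UMIs per 10000), 2 had equal lung and thyroid sums (1.49 and 0.626) and that of library 7 had the higher thyroid sum (3.64 against 0.728), so that the markers of 3 of these 4 cells do not bear out the name. Thyroid-like cells numbered 20, 25, 3 and 49 in the same order. The lung bud-like cells therefore came almost wholly from libraries 5 and 6, whereas *Tie2-cko* library 8 held the most thyroid-like cells.

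**Figure D1:**
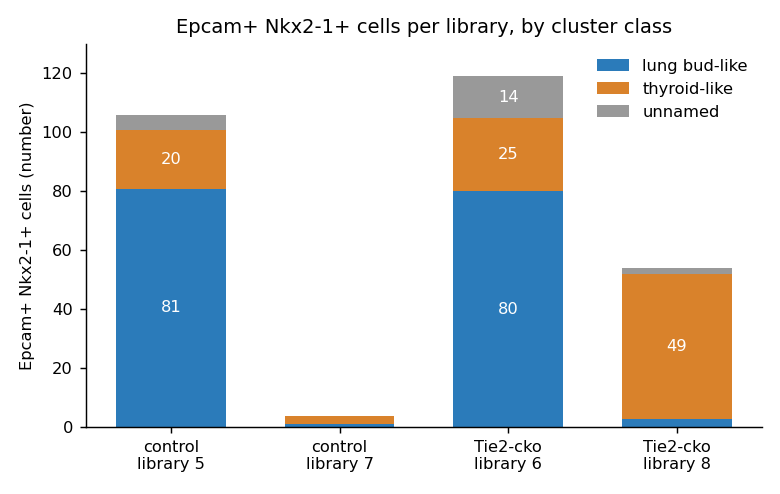
Number of Epcam+ Nkx2-1+ cells in each library, stacked by class (lung bud-like, thyroid-like and unnamed). Libraries 5 and 6 held 106 and 119 cells, most of them lung bud-like, library 8 held 54, of which 49 were thyroid-like, and library 7 held 4.

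Most single cells carried markers of only 1 of the lists. In lung bud-like cells the median sum of *Wnt7b*, *Irx1*, *Etv5* and *Cldn18* was 5.30 UMIs per 10000 and that of the thyroid markers was 0, and in thyroid-like cells the medians were 0 and 14.9. None of the 97 thyroid-like cells held UMIs of at least 2 of the 4 lung genes, and 6 of the 165 lung bud-like cells held UMIs of at least 2 thyroid genes. In addition 8 lung bud-like cells, 5 of library 5 and 3 of library 6, had no UMI of the 4 lung genes, of which 6 held thyroid UMIs (sums of 1.21 to 22.9) and 2 held neither, so that the names hold for clusters and not for every cell. Since the clusters were drawn from the same counts, this describes the classes and tests nothing. Over all 283 cells, without use of the clusters, 125 held UMIs of lung genes only, 95 of thyroid genes only, 61 of both and 2 of neither. These numbers were 69, 23, 12 and 2 in library 5, then 55, 30, 34 and 0 in library 6, then 0, 3, 1 and 0 in library 7, and 1, 39, 14 and 0 in library 8.

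**Figure D2:**
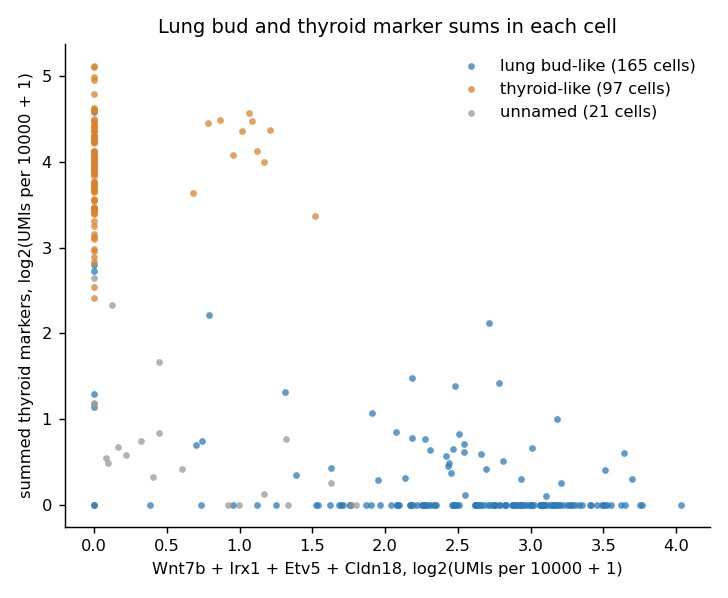
Each point is 1 Epcam+ Nkx2-1+ cell, coloured by class, with the summed level of *Wnt7b*, *Irx1*, *Etv5* and *Cldn18* on the x axis and that of the thyroid markers on the y axis, both as log2 of UMIs per 10000 plus 1. The lung bud-like cells (median sums 5.30 and 0) lie mostly along the x axis and the thyroid-like cells (0 and 14.9) mostly along the y axis.

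The clusters differed in depth and in leading genes. Of the lung bud-like clusters, the one of 69 cells was led by *Kif20b* and *Mki67*, genes of dividing cells, and the smallest, of 19 cells, by the mitotic genes *Ube2c*, *Aurka* and *Prc1*, with a median of 0.154% mitochondrial UMIs and a median depth 0.338 of its libraries' median. Another, with 38 of its 42 cells from control library 5, was led by *Mt1* and *Fam183b*, and the last, with 30 of 35 cells from *Tie2-cko* library 6, by *Ccnd1*, *Mecom* and *Krt7*. One thyroid-like cluster of 55 cells was led by *Dsp*, *Camk2d* and *Mmp14*. The other, 42 cells of libraries 7 and 8, was led by the ribosomal retrogene *Rps27rt*, a gene that separated those libraries in every class: its level in members was 0.850 and 0.876 UMIs per 10000 in libraries 5 and 6 and 7.45 and 8.95 in libraries 7 and 8, and in cardiomyocytes 0.494 and 0.634 against 4.38 and 4.39. The unnamed cluster, with a median of 104518 UMIs, held 6 of the 9 members scored as presumed doublets and was led by the liver genes *Afp*, *Rbp4* and *Apoa2*, the collagen gene *Col1a2* and the mesothelial gene *Upk3b*.

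The number of Epcam+ Nkx2-1+ cells differed widely among libraries, within as well as between genotypes. Control library 5 had 106 of 9019 kept barcodes (1.18%, 95% Wilson interval 0.973 to 1.42) and control library 7 had 4 of 7965 (0.0502%, 0.0195 to 0.129). *Tie2-cko* library 6 had 119 of 4468 (2.66%, 2.23 to 3.18) and *Tie2-cko* library 8 had 54 of 8963 (0.602%, 0.462 to 0.785). Intervals cover counting error only, and none of the 4 overlapped another. The mean share (± SD, n = 2 libraries for each genotype) was 0.613 ± 0.796% for control against 1.63 ± 1.46% for *Tie2-cko*, and the genotypes overlapped (exact permutation test, two-sided p = 0.667, where 2 against 2 libraries allow no p below 0.333). Within the pairs that *Rps27rt* sets apart, the *Tie2-cko* library was higher by 1.49 percentage points (6 against 5) and 0.552 points (8 against 7), with 1 library of each genotype in a pair (exact sign-flip permutation test, two-sided p = 0.5, the smallest that 2 pairs allow). Without *Tie2-cko* library 6 the difference of 1.02 points turned to -0.0103 points. Among *Epcam*-positive cells past the same limits, which numbered 771, 621, 275 and 479 in libraries 5, 6, 7 and 8, the members made up 13.7%, 19.2%, 1.45% and 11.3%, so that library 7 stood lowest on this base as well. How far the dissection reached into the foregut in each library is not given, and the part of dissection and genotype in these shares cannot be told apart.

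For thyroid-like cells alone, a class chosen after seeing the data, control libraries 5 and 7 had shares of 0.222% and 0.0377% of kept barcodes, against 0.560% and 0.547% for *Tie2-cko* libraries 6 and 8. Both *Tie2-cko* values lay above both control values, which gave the smallest p that the exact permutation test allows here, 0.333. For lung bud-like cells the shares were 0.898% and 0.0126% in control and 1.79% and 0.0335% in *Tie2-cko*, and the genotypes overlapped (exact permutation p = 0.667), the values of libraries 7 and 8 resting on 1 and 3 cells of uncertain name.

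The *Nkx2-1* call rested on few transcripts in a part of the cells. Of the members, 52 held 1 *Nkx2-1* UMI, 43 held 2 and 188 held 3 or more, up to 41. In cardiomyocytes, which should lack the gene, a *Nkx2-1* UMI was found in 0.691%, 0.781%, 0.0524% and 0.189% of cells in libraries 5, 6, 7 and 8, at median depths of 29114, 50371.5, 21888 and 24256.5 UMIs. Members had median depths of 13915.5, 29165, 8824.5 and 8474 UMIs. After each cell was thinned to 5000 UMIs, *Nkx2-1* was found in 0.145%, 0.0741%, 0% and 0% of cardiomyocytes, a share not set against that of the members, who were chosen for the gene. At the limits of the rule, the highest *Tnnt2* level among members was 11.7 UMIs per 10000 and the lowest among the cells left out was 15.1, with 93.5 and 759 for *Hbb-y* and 1.85 and 2.01 for the endothelial sum. In all, 32 *Epcam*- and *Nkx2-1*-positive cells were left out, 23 of them for *Tnnt2*. Pairs of libraries shared between 29 and 62 barcodes, and no barcode was a member in both libraries of a pair.

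To ask what set the Epcam+ Nkx2-1+ cells apart from neighbouring epithelium, raw UMIs were summed per library and compared with those of 182, 129 and 109 other epithelial cells (*Epcam* and *Cdh1* present, no *Nkx2-1* UMI) in libraries 5, 6 and 8, with the library as a block. Library 7, with 4 members, was not fitted. Some listed genes of the lung bud and of the thyroid were higher in the members. Some of the oesophagus, the pharyngeal pouches and the liver primordium were lower. Of 11766 genes tested, 184 passed an adjusted p of 0.05 (1.56%), 101 higher (0.858%) and 83 lower (0.705%) (edgeR, quasi-likelihood F test, Benjamini-Hochberg adjustment). Without library 8, whose members were nearly all thyroid-like, 722 of 12075 passed (5.98%; 2.67% higher and 3.31% lower), whereas 50 passed without library 5 and 25 without library 6. *Sox9*, *Epha4*, *Cystm1*, *Sfta3-ps* and *Sox2*, among the genes below, passed under each of 14 alternatives, and the others named kept their direction in each library left out that could be fitted. The median log2 difference over all genes was -0.0175. In the following, a level is the mean over cells of UMIs per 10000, a difference is on the log2 scale of the summed counts, and every adjusted p is from that edgeR test.

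Of the lung markers beside *Nkx2-1*, 3 of 4 rose, with a median log2 difference of 3.77 over the 4. These markers came with the proposed label and were chosen with earlier results of these data known. Their rise is thus no independent support for the label. *Cldn18*, a tight junction claudin, had levels of 0.543 in library 5 and 0.404 in library 6 and was at 0 in libraries 7 and 8, against 0, 0.00451, 0 and 0 in the other epithelial cells (log2 difference 6.26 ± 0.58 SE, adjusted p = 0.0108). The level was high in libraries 5 and 6 alone. Of 14 alternatives, *Cldn18* was tested in 11 and passed in 10. *Wnt7b*, the Wnt ligand of lung epithelium, had levels of 1.3, 1.17, 0 and 0.0567 in the members of libraries 5, 6, 7 and 8, against 0.0866, 0.0287, 0.0730 and 0.0423 (4.28 ± 0.62, adjusted p = 0.0296). *Etv5*, an ETS factor induced by FGF signalling, had levels of 1.34, 1.20, 0 and 0.217, against 0.103, 0.160, 0.0418 and 0.0670 (2.96 ± 0.34, adjusted p = 0.0118). Both genes were far above the other epithelium in libraries 5 and 6, close to it in library 8 for *Wnt7b*, and without a UMI in the 4 members of library 7. They no longer passed without library 5 (*Wnt7b* 4.45, *Etv5* 2.49) or without library 6 (3.12 and 2.78). The Iroquois homeobox gene *Irx1* had levels of 0.968, 1.14, 0.182 and 0.0288 against 0.0769, 0.0676, 0.105 and 0.0734, missed the threshold (3.26 ± 0.59, adjusted p = 0.0507) and passed it without library 8 (adjusted p = 1.79e-06).

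Of 24 tested genes of the wider respiratory list, 7 rose and none fell, with a median of 0.632. Among transcription factors, *Sox9* had levels of 1.47, 1.98, 1.02 and 2.08 in libraries 5, 6, 7 and 8, against 0.159, 0.261, 0.446 and 0.271 (2.98 ± 0.14, adjusted p = 0.00101). Members lay above the other epithelium in each library, which sets *Sox9* apart from the lung markers. The *Sox9* level was 1.32, 1.34, 1.12 and 2.19 in thyroid-like cells of libraries 5, 6, 7 and 8. In lung bud-like cells of libraries 5 and 6 it was 1.51 and 2.37, so that the gene was not particular to them. *Foxp2*, a forkhead repressor of lung epithelium, rose by 2.47 ± 0.41 (adjusted p = 0.0424) with levels of 1.5, 1.87 and 0.385 in libraries 5, 6 and 8, and *Irx5* by 2.02 ± 0.31 (adjusted p = 0.0330). *Fgfr2*, the epithelial receptor for FGF10, had levels of 0.786, 0.690 and 0.604 against 0.440, 0.333 and 0.412 (0.94 ± 0.14, adjusted p = 0.0307), a call lost without library 5 or 6 (0.98 and 0.93). *Foxp2* (2.12 and 1.99) and *Irx5* (1.95 and 1.5) lost theirs in the same way. Without library 8, 15 of 25 genes rose, among them *Irx2*, *Irx3*, *Id2*, *Bmp4* and *Mycn*, and *Foxa1* and *Elf3* fell.

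The remaining 3 of the 7 were surfactant protein genes, which were rare but almost confined to the members among epithelial cells. *Sftpc* had 19, 32, 0 and 0 UMIs in the members of libraries 5, 6, 7 and 8 and none in the other epithelial cells, at least 34.1-fold higher with the other arm set to a floor of 3 counts over the libraries fitted (adjusted p = 0.0383). *Sftpa1* had 47, 87, 0 and 0 UMIs against 5, 0, 0 and 0 (adjusted p = 0.0330), and *Sftpb* had 23, 128, 0 and 2 against 7, 1, 0 and 0 (adjusted p = 0.0390). *Sftpa1* UMIs were also found in cardiomyocytes (82, 64, 102 and 109, over 3471, 1408, 3817 and 4756 cells). Of 9 genes in the surfactant list, 5 were tested and 3 rose. *Sftpc* and *Sftpa1* were each tested in 11 alternatives and passed in 10, and *Sftpb* was tested in 13 and passed in 12.

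The 250 bases before the start of 2 of these genes are shown because NKX2-1 is known to act on surfactant promoters. They are from RefSeq for GRCm38.p6, forward strand, and the capitals mark core motifs of NK2 homeodomain factors, searched on both strands. One motif was CAAGTG. The other, shorter motif was TCAAG, whose last letters can overlap the start of the longer one. *Sftpa1* is at chr14:41131538-41131787 and *Sftpb* at chr6:72304360-72304609.
Sftpa1: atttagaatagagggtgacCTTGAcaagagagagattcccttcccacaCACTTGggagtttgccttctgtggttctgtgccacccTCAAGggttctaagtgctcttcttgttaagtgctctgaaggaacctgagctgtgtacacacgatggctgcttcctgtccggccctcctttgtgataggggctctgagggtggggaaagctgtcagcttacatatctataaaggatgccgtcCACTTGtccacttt
Sftpb: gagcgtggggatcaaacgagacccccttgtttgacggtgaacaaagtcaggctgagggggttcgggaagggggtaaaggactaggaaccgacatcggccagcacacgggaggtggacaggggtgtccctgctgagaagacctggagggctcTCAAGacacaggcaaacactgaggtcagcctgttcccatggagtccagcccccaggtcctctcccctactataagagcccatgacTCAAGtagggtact
The *Sftpa1* window held each motif 2 times and the *Sftpb* window held TCAAG 2 times and CAAGTG 0 times. Among all 32851 promoter windows of this length, 11.6% held CAAGTG and 35.9% held TCAAG, so that the matches are a description of the letters only.

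Some thyroid genes rose in the same comparison. Of 6 tested, 3 rose, with a median of 3.08. *Pax8*, a paired-box factor of thyroid follicular cells, had levels of 0.397, 0.564, 1.3 and 1.44 in the members of libraries 5, 6, 7 and 8 against 0.0165, 0.00809, 0.00995 and 0.0463 (5.34 ± 0.31, adjusted p = 0.00101). The members were above the other epithelium in every library. The thyrotropin receptor gene *Tshr* rose by 4.52 ± 0.60 (adjusted p = 0.0222) and the survival gene *Bcl2* by 3.0 ± 0.33 (adjusted p = 0.0113; 3.49 and not past the threshold without library 6). *Hhex* had levels of 1.35, 1.83, 4.14 and 7.24 against 0.122, 0.282, 0 and 0.146 (2.31 ± 0.59, adjusted p = 0.132). *Foxe1* had levels of 1.18, 1.46, 5.52 and 6.07 against 1.56, 0.177, 1.27 and 1.02 (1.67 ± 0.60, adjusted p = 0.282), and was thus present in the other epithelial cells too. *Tshr* missed the threshold without library 5 (4.31), whereas *Hhex* passed without library 8 (1.34) and *Foxe1* without library 5 (2.69), the latter standing at -0.40 and not past the threshold in members without a *Pax8* UMI. *Slc5a5*, the iodide transporter gene, had no UMI in any of the 283 cells, which allows a share of cells with a UMI of up to 1.06% and sets no limit on cells expressing the gene.

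**Figure D3:**
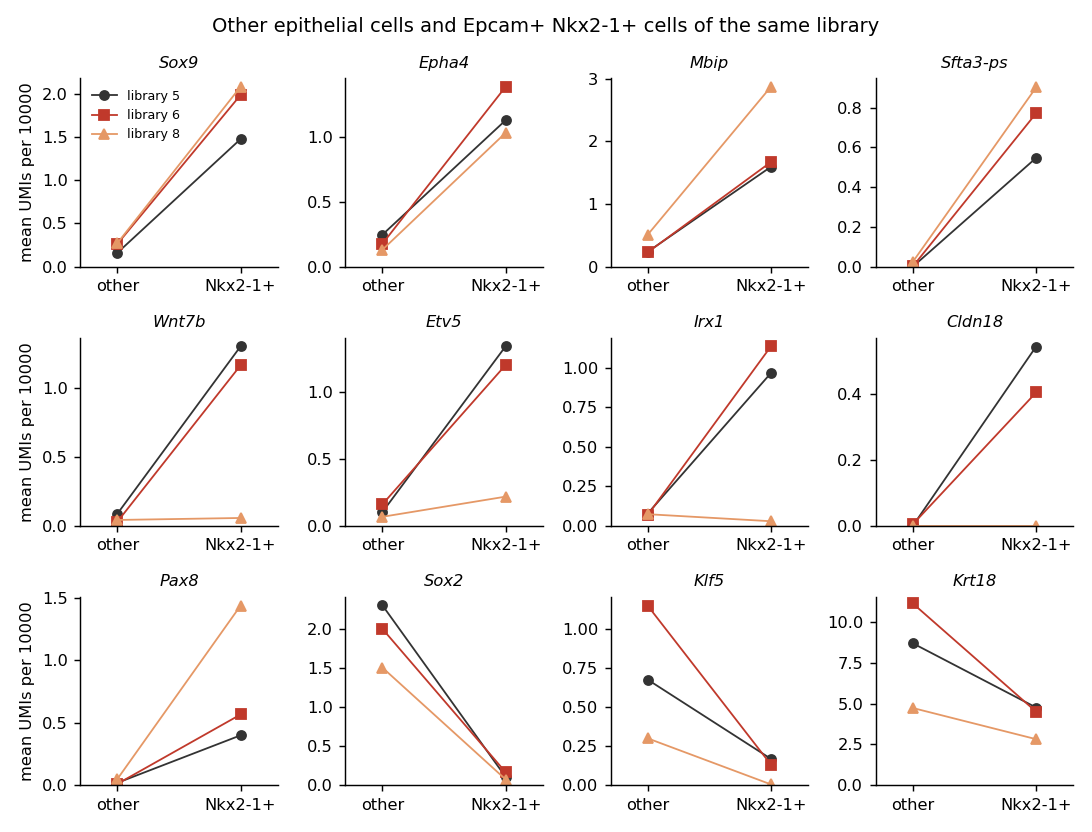
Levels (mean UMIs per 10000 over cells) of 12 genes in Epcam+ Nkx2-1+ cells and in other epithelial cells of libraries 5, 6 and 8, 1 point per library and arm. *Sox9*, *Mbip* and *Pax8* lie above the other epithelium in each of the 3 libraries, and *Sox2* lies below it, at 0.10, 0.161 and 0.0689 against 2.30, 2.0 and 1.5.

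Some genes of neighbouring foregut regions were lower. In the oesophageal and proximal foregut list 4 of 9 tested genes fell and none rose, with a median of -2.33. The summed level of this list was lower in members of libraries 5 and 6 (3.28 and 4.30 against 8.71 and 4.98). In library 8 it was higher in members (10.3 against 9.28). *Sox2*, the factor of the dorsal foregut and oesophagus, fell by 3.46 on the log2 scale (SE 0.21, adjusted p = 0.00101). *Klf5* fell by 2.40 (SE 0.26, adjusted p = 0.00978), with *Trp63*, a basal-cell factor, and *Perp*, a desmosomal gene, as the others. Of 8 pharyngeal genes tested, *Pax1* and *Fgf8* fell. *Pax1* had no UMI in the members of any library and 136, 44, 112 and 111 in the other epithelial cells, at least 48.4-fold lower against the floor (adjusted p = 0.0115). Of 11 hepatic genes, *Apoa1*, *Ttr*, *Hnf4a* and *Onecut1* fell and none rose, whereas 10 of 12 fell without library 8 and *Gata6* rose. *Meis2* (-1.80 ± 0.31), the serine synthesis gene *Phgdh* (-1.43 ± 0.18), the fatty acid-binding protein gene *Fabp5* (-1.39 ± 0.13) and the keratin gene *Krt18* (-0.96 ± 0.14) were the other abundant genes that fell in each library, with the metallothionein gene *Mt1* (-1.5 ± 0.24). Of the genes that fell, *Sox2* passed with any library left out, while *Klf5*, *Pax1*, *Fabp5*, *Phgdh*, *Krt18* and *Mt1* were not past the threshold without library 6, nor *Meis2*, *Phgdh* and *Krt18* without library 5. *Perp*, *Ttr*, *Hnf4a* and *Onecut1* lost their calls without library 5 or 6, and *Trp63*, *Fgf8* and *Apoa1* without library 6. *Krt18* levels were 4.76, 4.5 and 2.81 against 8.70, 11.2 and 4.73 in libraries 5, 6 and 8. The other epithelial cells were not alike among libraries: their *Afp* level was 6.73, 21.9 and 4.87 in libraries 5, 6 and 8.

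Several other abundant genes rose in each library. *Epha4*, an Eph receptor, had levels of 1.13, 1.39 and 1.03 in libraries 5, 6 and 8 against 0.247, 0.177 and 0.131 (2.59 ± 0.15, adjusted p = 0.00101). *Cdkn1c*, the imprinted inhibitor of cyclin-dependent kinases, had levels of 16.8, 17.4 and 14.2 against 8.67, 8.63 and 7.24 (0.78 ± 0.13, adjusted p = 0.0425). The arms did not overlap for either gene, and the call of *Cdkn1c* was lost without library 5 or 6 (0.75 and 0.87). Over the 14 alternatives, *Cdkn1c* passed in 7. *Cystm1* (1.93 ± 0.16), the adducin gene *Add3* (1.61 ± 0.18), the matrix gene *Sparc* (1.51 ± 0.26), the microtubule gene *Map1b* (1.48 ± 0.22), the fibrillin gene *Fbn2* (1.02 ± 0.16) and the claudin gene *Cldn3* (0.77 ± 0.13) rose as well, with adjusted p between 0.00405 and 0.0459. Of these 6, *Map1b*, *Fbn2*, *Cldn3* and *Sparc* did not pass without library 5 or without library 6. For *Sparc*, library 8 stood apart, at 20.1 against 7.13 and 7.56 in the members of libraries 5 and 6, and without it the difference was 1.09. Its level in lung bud-like cells of libraries 5 and 6 was 3.94 and 3.23, against 3.43 and 2.34 in the other epithelial cells.

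Some genes next to *Nkx2-1* on chromosome 12 rose as well. *Nkx2-1* (ENSMUSG00000001496) spans chr12:56531958-56536908 of GRCm38 on the reverse strand. Of 10 annotated genes within 500000 bases, 5 were tested and 3 rose. *Mbip* (56328303 to 56345894, reverse strand), which encodes a kinase-binding protein, had levels of 1.59, 1.67 and 2.87 against 0.236, 0.228 and 0.509 (2.55 ± 0.14, adjusted p = 0.00101), and was also found in cardiomyocytes at 0.106, 0.109 and 0.128. *Sfta3-ps* (56488321 to 56529427, reverse strand) had levels of 0.547, 0.772 and 0.902 against 0, 0.00126 and 0.0244 (7.95 ± 0.40, adjusted p = 0.00101). Its 5′ end lies 2531 bases downstream of the 3′ end of *Nkx2-1* on the same strand, and whether its UMIs come from *Nkx2-1* transcripts was not tested. The long non-coding gene *Gm19990* (56253243 to 56266384, forward strand) rose by 6.80 ± 0.65 (adjusted p = 0.00708) and was found in lung bud-like cells (0.177 and 0.207 in libraries 5 and 6) but in none of the thyroid-like cells of libraries 5, 6 and 8. The pharyngeal gene *Pax9*, beyond *Nkx2-1*, was at -2.33 ± 0.42 (adjusted p = 0.0507) and passed without library 8. *Slc25a21*, the other tested neighbour, was at -2.23 ± 0.45 (adjusted p = 0.0689) and likewise passed without library 8.

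Few of the listed signalling pathway genes passed. In the Wnt list 3 of 14 genes rose, namely *Wnt7b* and the targets *Lef1* (1.94 ± 0.32, adjusted p = 0.0400) and *Sp5* (1.90 ± 0.27, adjusted p = 0.0285), with a median of 0.626. Both targets were lost without library 5 or 6. In the FGF list *Fgfr2* and *Etv5* rose among 14 (median -0.0449), while the feedback genes *Spry2*, *Spry4* and *Dusp6* did not pass. The BMP antagonist *Grem1* (4.21 ± 0.65, adjusted p = 0.0355) was the 1 of 12 BMP genes, and the retinoic acid-synthesising enzyme gene *Aldh1a3* (2.57 ± 0.36, adjusted p = 0.0285) the 1 of 10 retinoic acid genes that rose, and both lost their calls without library 5 or 6. Without library 8, 4 of 13 BMP genes rose (*Bmp4*, *Id2*, *Id3* and *Grem1*). None of 9 hedgehog, 7 Notch, 13 laminin and basement membrane, 13 Hox, 10 VEGF and TIE, 20 S phase or 20 G2 and mitosis genes passed with all 3 libraries, where edgeR gave 1519 genes an unadjusted p under 0.05 over the whole table. Without library 8, the hedgehog ligand *Ihh*, *Hells* of the S phase list and *Cenpf* of the mitosis list fell, and *Lama3* and *Sema3c* rose. Medians were 0.274 for hedgehog, -0.463 for Notch, -0.0448 for S phase and -0.602 for G2 and mitosis genes.

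The nearest foregut epithelium was the *Sox2*-positive part of the same cells, 128, 89 and 68 cells in libraries 5, 6 and 8. Since the members are the same and these cells are a subset of the other epithelial cells, the comparison is not independent of the one above. Of 10903 genes tested, 79 passed (0.725%), 53 higher (0.486%) and 26 lower (0.238%) (edgeR), and without library 8, 712 of 11726 passed (6.07%; 2.88% higher and 3.19% lower). Without library 5 only 5 genes passed, and *Wnt7b*, *Etv5*, *Bcl2*, *Ccnd1*, *Sox11*, *Krt18*, *Klf5* and *Foxa1*, described next, were among 17 named genes that lost their call, while *Sox9* and *Pax8* passed. The same 3 of 4 lung markers rose, with differences of 5.75 ± 0.45 for *Wnt7b* (adjusted p = 0.00655), 5.98 ± 0.58 for *Cldn18* (adjusted p = 0.0206) and 3.26 ± 0.29 for *Etv5* (adjusted p = 0.00733). *Sox9* rose by 3.07 ± 0.19 (adjusted p = 0.00463), against levels of 0.108, 0.207 and 0.238 in the *Sox2*-positive cells. *Sftpa1* had no UMI in these cells (at least 59.3-fold, adjusted p = 0.0327). The calls of *Cldn18* and *Sftpa1* each passed in 10 of the 11 alternatives in which they were tested. *Pax8* (adjusted p = 0.00901) and *Bcl2* (adjusted p = 0.0455) rose among 4 thyroid genes. The cyclin gene *Ccnd1* had levels of 3.36, 3.88 and 1.09 against 0.839, 1.55 and 0.533 (1.34 ± 0.20, adjusted p = 0.0482). *Foxa1*, a pioneer factor of endoderm, fell by 1.33 (SE 0.18, adjusted p = 0.0387), *Sox11* by 1.07 (SE 0.15, adjusted p = 0.0454), *Krt18* by 0.98 (SE 0.15, adjusted p = 0.0468) and *Klf5* by 2.91 (SE 0.25, adjusted p = 0.00713). None of 11 hepatic genes passed, among them *Apoa1* (-0.36 ± 0.73) and *Ttr* (-0.13 ± 0.91), which had fallen against all other epithelial cells. Without library 8, 9 of 12 fell, *Apoa1* and *Ttr* included, and *Gata6* rose.

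The lung bud-like and thyroid-like cells differed in hedgehog genes, in endodermal transcription factors and in Iroquois genes. The classes were drawn from these counts, so that the levels that follow are descriptions with no test, and median depths were 15355 and 30682.5 UMIs in lung bud-like cells of libraries 5 and 6 and 9240, 13189 and 8265 in thyroid-like cells of libraries 5, 6 and 8. *Shh*, the hedgehog ligand, had levels of 0.938 and 0.903 in lung bud-like cells and no UMI in any of the 97 thyroid-like cells, which allows up to 3.09% of cells with a UMI at these depths. Its receptor and target *Ptch1* ran the other way, at 0.384 and 0.527 in lung bud-like against 3.09, 1.82 and 2.11 in thyroid-like cells, with other epithelial cells at 0.921, 0.623 and 0.857. The targets *Hhip* (0.0428 and 0.0707 against 0.395, 0.296 and 0.274) and *Gli1* (0.0138 and 0.0201 against 0.161, 0.227 and 0.128) were ordered like *Ptch1*. Thus in libraries 5 and 6, where both classes could be compared, the ligand was in one class and the higher levels of 3 pathway targets in the other.

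The endodermal factors *Foxa2* (0.720 and 0.80), *Foxa1* (0.352 and 0.472) and *Gata6* (0.951 and 1.23) were present in lung bud-like cells. In thyroid-like cells *Foxa2* was at 0 in libraries 5, 6 and 8, *Foxa1* reached 0.0129 and *Gata6* reached 0.0859. Between all members and other epithelial cells without library 8, *Gata6* rose and *Foxa1* fell, whereas neither *Foxa2* nor *Shh* passed. *Irx2* (0.890 and 1.19) and *Irx3* (1.07 and 1.11) were likewise near 0 in thyroid-like cells, as was the growth regulator *Mycn* (0.705 and 0.851, against 0.0824 at most). *Cpm* stood at 1.19 and 1.04 in lung bud-like cells, with 0.887, 1.59 and 0.666 in other epithelial cells. The secreted factor gene *Mia*, outside the lists and chosen after its values were seen, had levels of 0.782 and 0.579, and reached 0.0815 in thyroid-like and 0.0244 in other epithelial cells. *Ccnd1* stood at 3.93 and 5.01 against 0.738, 0.654 and 0.977 in thyroid-like cells. After thinning to 5000 UMIs, 48.8% and 52.5% of lung bud-like cells held *Wnt7b*, 26.3% and 17.5% held *Cldn18*, and 38.8% and 61.3% held *Sox9*. The shares before thinning were 81.5% and 91.3%, 42.0% and 65%, and 76.5% and 85.0%. In thinned cardiomyocytes, with median depths before thinning of 29114 and 50371.5 UMIs, the shares were 0.116% and 0.0741% for *Wnt7b*, 0% and 0.0741% for *Cldn18*, and 1.57% and 1.41% for *Sox9*.

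**Figure D4:**
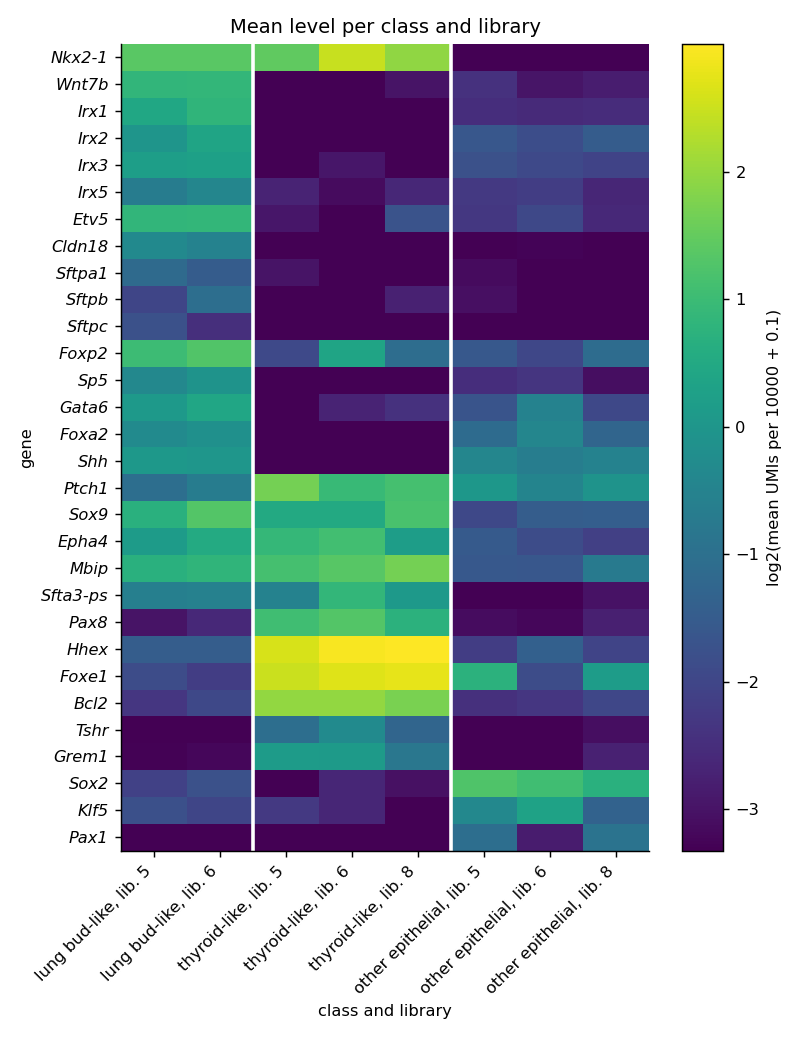
Heat map of log2 of the mean level (UMIs per 10000, plus 0.1) of 30 genes in lung bud-like cells of libraries 5 and 6 and in thyroid-like and other epithelial cells of libraries 5, 6 and 8. Colours are compared along rows: *Shh*, *Foxa2* and *Gata6* are high in both lung bud-like columns, and *Hhex*, *Foxe1* and *Bcl2* in the 3 thyroid-like columns.

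In the thyroid-like cells 6 of the 8 thyroid markers were present. *Hhex*, a homeobox factor, had levels of 5.99, 7.58, 5.51 and 7.90 in libraries 5, 6, 7 and 8 and *Foxe1*, a forkhead factor, 5.52, 6.35, 6.14 and 6.67. *Pax8* had levels of 2.0, 2.39, 1.74 and 1.58. The 4 libraries were alike in these genes, even with the 3 cells of library 7. *Nkx2-1* was at 2.66, 5.39, 5.93 and 3.76, a gene of the rule. After thinning, *Hhex* was found in 90.0%, 95.7% and 100% of thyroid-like cells of libraries 5, 6 and 8 and in 0.609%, 0.741% and 0.634% of cardiomyocytes. Unthinned, the shares were 100%, 100% and 100% of thyroid-like cells and 3.98%, 6.32% and 2.23% of cardiomyocytes. *Bcl2* stood at 3.84, 3.86 and 3.19 against 0.102 and 0.158 in lung bud-like cells, *Isl1* at 3.18, 4.04 and 3.12 against 0.665 and 0.894, and *Tshr* at 0.390, 0.716 and 0.317 against no UMI. Thyroglobulin (*Tg*) was at 0.230, 0 and 0.0826. The prolactin receptor gene *Prlr*, chosen after its values were seen, stood at 3.6, 3.88 and 4.83 against 0.0827 and 0.0498.

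Signals and matrix genes differed between the classes too. The BMP targets *Id1* (4.61, 4.35 and 4.49 against 1.77 and 1.73) and *Id3* (8.73, 7.92 and 11 against 3.59 and 2.81) were higher in thyroid-like cells, whereas *Id2* was lower (3.79, 4.53 and 3.56 against 5.33 and 5.90). Also higher were the BMP antagonist *Grem1* (1.01, 0.983 and 0.464 against 0.00263 and 0.00782), *Aldh1a3* (0.786, 0.696 and 0.840 against 0.0282 and 0.0128), the integrin gene *Itga6* (1.52, 2.02 and 1.58 against 0.286 and 0.288) and *Sparc* (18.8, 20.7 and 21.7 against 3.94 and 3.23). *Vegfa*, the vascular endothelial growth factor gene, stood at 0.531, 0.958 and 1.04 against 0.0962 and 0.0974. The semaphorin gene *Sema3c* ran the other way (0.377, 0.638 and 0.260 against 1.25 and 1.43), as did the Wnt target *Sp5*, which was at 0 in thyroid-like cells of libraries 5, 6 and 8 and at 0.667 and 0.849 in lung bud-like cells. The Wnt target *Lef1* stood at 0.429, 0.430 and 0.444 against 0.260 and 0.434, higher in thyroid-like cells of library 5 and near equal in library 6. Of 16 Hox genes, which mark position along the body axis, 12 had no UMI in thyroid-like cells, among which *Hoxb2* had 5, 29, 1 and 17 UMIs in libraries 5, 6, 7 and 8. *Hoxb4* stood at 0.25 and 0.198 and *Hoxa5* at 0.0488 and 0.0636 in lung bud-like cells.

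Genes of the cell cycle were lower in thyroid-like cells. The summed level of 20 G2 and mitosis genes was 20.5 and 22.2 in lung bud-like cells of libraries 5 and 6, against 2.04, 1.47 and 2.76 in thyroid-like cells of libraries 5, 6 and 8. In other epithelial cells it was 24.2, 27.6 and 32.5. The sum of 20 S phase genes was 18.0 and 20.5 in lung bud-like, 8.14, 7.17 and 8.65 in thyroid-like and 15.2, 18.5 and 14.9 in other epithelial cells. In both lists the thyroid-like values lay below every other value of a class and library. By cluster, however, the G2 and mitosis sum was 3.52 in the 35 lung bud-like cells led by *Ccnd1*, close to the 1.83 and 2.83 of the thyroid-like clusters, and 37.6, 32.5 and 12.6 in the other lung bud-like clusters, so that low values were not particular to thyroid-like cells. The S phase sum was 15.5 to 22.6 in the lung bud-like clusters and 7.78 and 8.36 in the thyroid-like clusters.

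**Figure D5:**
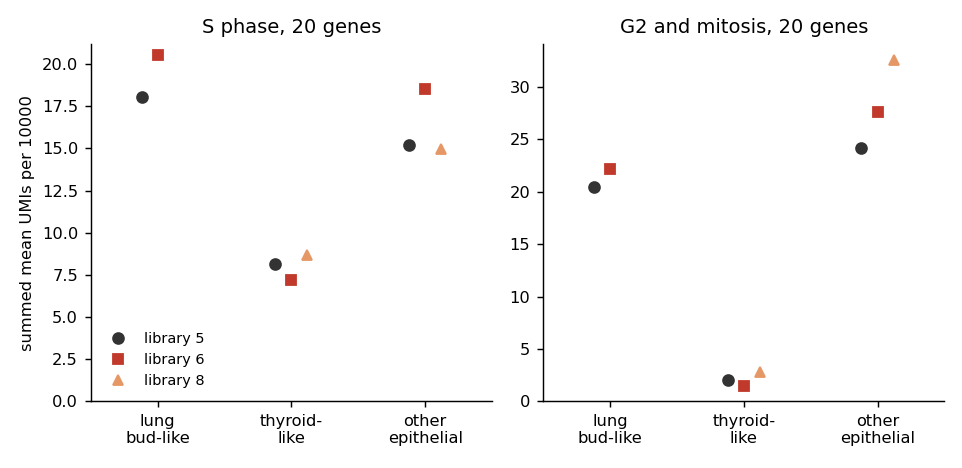
Summed level (UMIs per 10000) of 20 S phase genes and of 20 G2 and mitosis genes by class and library. For G2 and mitosis genes the thyroid-like values lie between 1.47 and 2.76 in libraries 5, 6 and 8, and the lung bud-like values of libraries 5 and 6 are 20.5 and 22.2.

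Between genotypes, lung bud-like cells could be set side by side only for library 5 (control) and library 6 (*Tie2-cko*), with 1 library each and therefore no test. The lung bud-like cells of these libraries lay in part in different clusters, that led by *Mt1* holding 38 cells of library 5 and 2 of library 6 and that led by *Ccnd1* holding 4 and 30. Between these clusters *Sox9* stood at 1.33 and 2.33, *Irx1* at 0.981 and 2.01 and *Sftpb* at 0.151 and 0.283, and the part of cluster membership in the values below was not tested. Pooled levels are given with exact Poisson intervals at 95%, which cover counting error only. *Wnt7b* stood at 1.62 (1.42 to 1.85) in library 5 and 1.73 (1.59 to 1.88) in library 6, and *Cldn18* at 0.589 (0.468 to 0.731) and 0.516 (0.440 to 0.601). The intervals of both genes overlapped. *Irx1* stood at 1.22 (1.04 to 1.42) and 1.59 (1.45 to 1.73), *Sox9* at 1.55 (1.35 to 1.77) and 2.55 (2.38 to 2.73), and *Sftpb* at 0.165 (0.105 to 0.248) and 0.381 (0.317 to 0.455), each higher in *Tie2-cko* library 6, with intervals apart. The surfactant genes *Sftpa1* (0.330 and 0.25) and *Sftpc* (0.136 and 0.0876) were lower in library 6, with overlapping intervals. Of 1582 genes at 1 or more UMI per 10000 in either library, 420 (26.5%) had intervals apart, so that separate intervals are not particular to these genes. Among those 1582 genes, the lowest ratios of *Tie2-cko* to control were of *Hba-a1*, *Hbb-y*, *Hba-x* and *Hbb-bh1*, genes of red blood cells, and *Ttn*, of cardiomyocytes, with *Hbb-y* at 28.2 and 4.92. The highest among them were of *Ddx21*, *Ptbp1*, *Cenpe*, *Uhrf1* and *Sox9*, with *Ddx21* at 0.812 (0.669 to 0.976) and 1.45 (1.32 to 1.59).

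*Tek*, which encodes TIE2, is the deleted gene and was looked at first in endothelial cells, where control libraries 5 and 7 had levels of 0.751 and 1.17, against 0.310 and 0.222 for *Tie2-cko* libraries 6 and 8. In Epcam+ Nkx2-1+ cells it had 5, 17, 0 and 2 UMIs in libraries 5, 6, 7 and 8, of which 3, 17, 0 and 2 were in the unnamed cluster. Over all members, control library 5 was then compared with *Tie2-cko* libraries 6 and 8, the lone control being assumed to vary like the mutants. Of 10886 genes, 11 passed (0.101%), 8 higher (0.0735%) and 3 lower (0.0276%) in *Tie2-cko*, and 87 had an unadjusted p under 0.05 (edgeR). The 8 were genes of liver or plasma proteins, *Afp*, *Apoa2*, *Alb*, *Apom*, *Fgb*, *Trf*, *Serpina1b* and *Rbp4*, with an *Afp* level of 0.144 in library 5 against 1.89 and 1.22 in libraries 6 and 8 (5.10 ± 0.59, adjusted p = 0.00932). The 3 were the globin genes *Hba-a1*, *Hba-x* and *Hbb-y*, of which *Hbb-y* belongs to the rule, so that its difference is a description only. The *Afp* UMIs lay in the unnamed cluster, which held 3021 of 3070 in library 6 and 355 of 361 in library 8, and with that cluster left out no gene passed. The difference of *Afp* was then -0.35, whereas those of *Hba-a1* (-2.83, against -2.87 with the cluster) and *Hba-x* (-2.46, against -2.50) stayed near their size (adjusted p = 1.00 each, edgeR). The globin levels moved alike in other cells of these libraries: *Hba-a1* in libraries 5, 6 and 8 stood at 9.22, 1.45 and 1.57 in members, 8.27, 2.20 and 1.12 in other epithelial cells, 11.1, 3.15 and 1.29 in cardiomyocytes and 8.37, 1.76 and 1.23 in endothelial cells. In control library 7, which was not fitted, *Hba-a1* stood at 3.78, 2.42, 3.46 and 2.71 in the same order of cells. Each of these values lay nearer to libraries 6 and 8 than to library 5, so that the high level was not shared by both controls. For the lung and thyroid genes the classes held different shares of the cells in each library, 49 of 54 being thyroid-like in library 8, and none passed: *Wnt7b* differed by -1.28 ± 0.86 and *Hhex* by 1.82 ± 0.83 (adjusted p = 1.00 each, edgeR).

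Markers of other cells in the dissection were present in both arms. For cardiomyocytes and red blood cells their sums exceeded the members' summed level of the 5 lung markers (6.61, 6.78, 4.81 and 3.81). The summed level of the cardiomyocyte list was 24.1, 11.2, 34.7 and 35.4 in the members of libraries 5, 6, 7 and 8, led by *Myl7*, against 19.4, 12.5, 27.2 and 26.0 in the other epithelial cells. The red blood cell list, led by *Hbb-y*, stood at 73.9, 13.8, 38.3 and 17.7 against 70.6, 19.9, 31.6 and 12. None of 9 cardiomyocyte, 6 red blood cell, 5 endothelial, 12 mesenchymal, 7 mesothelial and 6 neural genes tested passed between members and other epithelial cells (edgeR). The median log2 differences were toward the members for endothelial (1.20), mesothelial (0.634) and mesenchymal genes (0.481). They were 0.0933 for cardiomyocyte, -0.0273 for neural and -0.474 for red blood cell genes. Without library 8, *Hbb-bh1*, *Hba-x* and *Hba-a1* fell among 7 red blood cell genes, and the endothelial gene *Plvap*, the mesenchymal gene *Postn* and the neural genes *Tubb3* and *Stmn2* rose. In members of libraries 5, 6, 7 and 8 the endothelial list summed to 0.529, 0.747, 0.461 and 0.554, led by *Egfl7*, and the mesenchymal list to 0.661, 1.32, 0 and 0.384. The pan-leukocyte gene *Ptprc* had no UMI in members, which sets no limit on cells expressing it. The 6 listed genes of the ventral forebrain, the other place where *Nkx2-1* is made, summed to 0.0236, 0.0880, 0 and 0.0718 in members, against 0.0321, 0.0608, 0.121 and 0.0849 in other epithelial cells. The list was led by *Lhx2*, with 6, 77, 0 and 1 UMIs, of which 2, 67, 0 and 0 lay in the unnamed cluster. *Nkx2-4* had 3 UMIs, all in library 8, *Six3* and *Rax* had 1 each and *Six6* none. The part of these markers in the differences above was not tested.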

How the data were processed

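The authors made UMI counts per gene and barcode with Cell Ranger (6.1.2 by the file headers, whereas the methods name another version; mm10 in the processing notes) and deposited the raw counts without normalization. A level is the number of UMIs per 10000 of a cell, averaged over cells. For tests, counts were summed per library and arm in libraries with at least 10 cells in each arm, and fitted with edgeR 4.0.16 (R 4.3.3; TMM, filterByExpr, quasi-likelihood test, library as block except between genotypes, Benjamini-Hochberg over all genes tested). The genes of the rule and *Cdh1* were not tested against other epithelial cells, and *Sox2* not against *Sox2*-positive cells. Other epithelial cells needed a *Cdh1* UMI, which 133 of the 283 members had. Members were clustered in scanpy 1.11.5 (2000 variable genes, 20 principal components, 15 neighbours, resolution 0.8). Naming a cluster took at least 3 markers, each reaching 0.25 of its highest cluster level. Doublets were scored with Scrublet, whose automatic threshold did not work in library 6, and the top scores at 0.8% per 1000 barcodes were called presumed doublets and kept except in an alternative. Standard errors are the absolute log2 difference over the square root of F. The methods were tested on simulated data.

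The members and gene lists were chosen with earlier results of these data known. Genes named are those of the lists, and abundant genes (1 or more UMI per 10000 in the higher arm) with the largest differences in the same direction in every library fitted, up to 12 higher and 8 lower, and for genotype the called genes or the 5 highest and lowest ratios. Identifiers were looked up in GENCODE M21 (GRCm38), where 32158 of 32285 were found. Alternatives were DESeq2 1.42.0, other scaling (RLE), no filter, no block, each library left out, stricter or looser gates, removal of presumed doublets and removal of the unnamed cluster, the last and the class-wise shares chosen after seeing the data. A few genes of the lists and tables are not reported here.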

Additional observations from a re-analysis of the deposited data

How the results depend on the processing

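The difference in the share of Epcam+ Nkx2-1+ cells between genotypes, 1.02 percentage points, lay between 0.457 and 1.12 under the other gates and filters except for thyroid-like cells alone (0.423), and between -0.0103 and 2.05 with 1 library left out, the lowest without *Tie2-cko* library 6. Of the single-gene values against other epithelial cells, 519 kept direction and side of the threshold, 103 no longer passed, 16 newly passed and 1 reversed, *Foxe1* at -0.40 in members without a *Pax8* UMI. Against *Sox2*-positive cells these numbers were 282, 48, 13 and 9. The 9 were of 2 liver genes that did not pass with all 3 libraries, *Apoa1* (0.64 with DESeq2, 0.048 in members with a *Cdh1* UMI, -1.05 to 0.044 with 1 library left out) and *Ttr* (0.41 with DESeq2, 0.20 without a *Pax8* UMI, 0.053 in cells of 10000 or more UMIs, 0.24 in members with a *Cdh1* UMI, -1.29 to 1.33 with 1 library left out).

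Counts of called genes moved more. Against other epithelial cells (184 genes) and against *Sox2*-positive cells (79), edgeR called 1049 and 691 without the filter on low counts, 13 and 7 without the replicate block for the library, 333 and 134 with *Nkx2-1* at 2 or more UMIs, 295 and 152 in members without a *Pax8* UMI, 297 and 139 in members with a *Cdh1* UMI, and 354 and 163 without the unnamed cluster. DESeq2 called 265 and 161. With 1 library left out the counts were 25 to 722 and 5 to 712, both highest without library 8, and lowest without library 6 and library 5, respectively. For genotype (11 genes) they were 20 with RLE scaling, 22 without the filter, 20 without presumed doublets, 12 with DESeq2, and 0 with *Nkx2-1* at 2 or more UMIs, in members without a *Pax8* UMI and without the unnamed cluster, where *Afp* (-0.35), *Apoa2* (-0.93) and *Rbp4* (-1.02) reversed. The causes of these moves were not tested. Leaving out a library was not run for genotype, since it leaves no spread or no control.

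The labels pair no libraries, since the genotypes share no replicate number, and no paired fit of the genes was made, since only 1 control library could be fitted. Pairing by *Rps27rt*, chosen after seeing the data, comes from the data and not the labels, and gave a mean difference in share of 1.02 points (exact sign-flip permutation p = 0.5, the smallest that 2 pairs allow). Library 7, with 4 members, adds no test, only 1 control library had lung bud-like cells in number, and the genes of few UMIs are limited by the 36970 to 5651373 UMIs of members in a library.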

Other observations

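*Xist* and Y-linked transcripts were also counted. None of 5 sex-linked genes passed against other epithelial cells or against *Sox2*-positive cells (edgeR, all 3 libraries). *Xist* had 14 UMIs in the Epcam+ Nkx2-1+ cells of control library 5 and none in those of libraries 6, 7 and 8, and 111 in the other epithelial cells of library 5 and none in those of the other libraries. *Ddx3y* had 42, 176, 0 and 33 UMIs and *Eif2s3y* 44, 178, 0 and 33 in the members of libraries 5, 6, 7 and 8. Control library 5 thus held transcripts of both kinds, and the other libraries with enough members held Y-linked ones alone.

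Within the 165 lung bud-like cells, the Spearman correlation of *Sox9* was 0.291 with *Etv5* and -0.324 with *Sox2*, over cells that share libraries and differ in depth, so that these values are a description.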
